A study of Mus musculus with 2 samples.

Results

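The distal part of mouse chromosome 4 holds a cluster of related zinc finger genes, many of them still known by clone names, between single-copy genes. Members were all rows of the WT and G34R RPKM tables whose start lay in an interval of mm9 that opens with Efhd2 and ends before Agtrap, leaving out names beginning with Prame. This gave 95 of the 26127 rows, and 7 Prame-named rows of the interval were left out. The interval was chosen with the WT and G34R values known, so the ratios below describe these libraries and do not test the choice. The 95 rows fell into 20 rows (19 gene names) of a zinc finger class, 53 other clone- or family-named rows and 22 single-copy neighbours. The zinc finger class took names beginning with Zfp, Rex2, and clone names (Gm or Rik) whose translated coding sequence held at least 3 fingers of the C2H2 type or that RefSeq names as a zinc finger gene.

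RNA from mouse embryonic stem (ES) cells of strain 129S1/SvImJ, grown in serum with leukaemia inhibitory factor, was sequenced as 1 library per cell line. WT cells carried normal H3f3a and H3f3b, the genes that both encode the histone variant H3.3. G34R cells carried the glycine to arginine change at residue 34 of H3.3 on 1 allele of H3f3a, made in a targeted line by exchange of an exon and Cre excision, with normal H3f3b. There were no replicates, so no difference was tested against the spread between samples, and genotype and cell line cannot be told apart.

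Most genes of this family encode proteins with a KRAB domain and a row of C2H2 zinc fingers. The fingers bind DNA, often within retroelements, and the KRAB domain recruits the co-repressor Trim28, which brings in the H3K9 methyltransferase Setdb1 and other silencing factors. Such genes lie in clusters that grew by duplication, so neighbouring copies can be nearly identical and differ between mouse strains. In ES cells this pathway is known for the silencing of endogenous retroviruses.

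The copies resembled each other upstream of their start sites as well as in their exons. The reference sequences that follow (mm9, 5′ to 3′ on the strand of each gene) show the upstream resemblance. These windows lie before the annotated 5′ ends. How far single members can be told apart in RNA reads rests on the exon sequence, which is described after them. Each was taken from bases -200 to -51 before the annotated 5′ end of Zfp600, or its best match in the 250 bases before another member. For Zfp600 (chr4:146124025-146124174) the sequence is printed in lower case, and capitals in Gm13225 (chr4:145100472-145100624), Zfp534 (chr4:147076765-147076912, minus strand) and Gm13157 (chr4:147183970-147184119, minus strand) mark bases that differ from it or are added. The window of Zfp933 (chr4:147222526-147222675, minus strand), the outermost zinc finger gene on the distal side, was not alignable to that of Zfp600 at 80% identity and is shown without capitals.
Zfp600: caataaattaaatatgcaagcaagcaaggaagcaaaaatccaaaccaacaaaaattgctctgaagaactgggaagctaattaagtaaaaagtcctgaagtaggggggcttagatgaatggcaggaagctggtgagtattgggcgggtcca
Gm13225: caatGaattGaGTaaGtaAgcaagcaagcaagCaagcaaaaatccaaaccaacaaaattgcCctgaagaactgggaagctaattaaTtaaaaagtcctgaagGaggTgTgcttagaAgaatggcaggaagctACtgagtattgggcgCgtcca
Zfp534: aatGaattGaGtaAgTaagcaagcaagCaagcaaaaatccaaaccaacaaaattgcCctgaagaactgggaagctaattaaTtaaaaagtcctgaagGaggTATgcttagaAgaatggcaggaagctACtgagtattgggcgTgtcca
Gm13157: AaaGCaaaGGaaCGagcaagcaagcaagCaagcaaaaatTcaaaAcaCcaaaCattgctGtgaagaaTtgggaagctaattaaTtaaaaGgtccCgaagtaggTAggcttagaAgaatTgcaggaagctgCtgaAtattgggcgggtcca
Zfp933: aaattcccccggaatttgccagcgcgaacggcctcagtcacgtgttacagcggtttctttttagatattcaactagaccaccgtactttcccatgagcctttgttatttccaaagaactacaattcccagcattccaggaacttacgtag

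Gm13225 was 89.0% identical to Zfp600 in this window, Zfp534 88.0% and Gm13157 84.1%. Gm13138 was identical throughout and Gm13145 to 98.7%, while Zfp933 reached 52.3%. Of the 27 zinc finger and clone-named rows from Gm13227 to Zfp933 with at least 0.25 RPKM in 1 sample, 12 were nearest to Zfp600 (at least 80.9% identical), 6 were nearest to Gm13157 (at least 85.4%) and 9 were under 80% identical to both. The windows of the 15 single-copy neighbours that could be placed were 47.1 to 55.0% identical to Zfp600. A match of this kind describes sequence and says nothing of what binds there.

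The same held for coding sequence, as a single 50-base stretch shows. It (chr4:147050071-147050120, minus strand, in Zfp534) was the most widely shared coding stretch, found in exons of 11 rows and at 15 places in mm9, 14 of them within the interval.
Zfp534 and 10 other rows: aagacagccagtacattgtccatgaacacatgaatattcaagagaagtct

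The reads were 50 bases long, so a read that falls wholly within such a stretch could not be assigned to 1 member. The authors kept the primary alignment of each read, and how reads with several equal positions were divided among members was not tested. Of 33544 different exon stretches in the class, 16568 occurred more than once in mm9, and 60.6% of these were found in the interval only. Row by row, the median share of repeated stretches found in the interval only was lower, at 32.2%, with 13.0% in Gm13242, 19.6% in Gm13145, 26.1% in Zfp600 and 26.9% in Rex2, so in many strongly lower rows most repeated stretches also occurred outside the interval. An exchange of reads among members of like length leaves the summed RPKM of the class unchanged, which does not hold for an exchange with copies elsewhere in the genome. The share of exon stretches that occurred once in mm9 had a median of 23.0% over the 20 zinc finger rows and ran from 0.0% in Rex2, Gm13138 and the shorter row of Gm13151 to 96.2% in Zfp933. All stretches of Rex2 were also found in Gm13138, a longer row, and RefSeq gave both rows the name Rex2. Among the 15 single-copy neighbours with a value and at least 0.25 RPKM, 14 were over 90% unique. The other, Smarca5-ps, was put in this class by its name and was 38.3% unique.

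The steps between low RPKM values of short single-exon genes gave a depth of about 88.4 M reads for WT and 72.9 M for G34R cells. RPKM is a read density scaled for transcript length and for library size, and its sums over all rows were 156468 and 151548. All 6 ES cell markers were above 50 RPKM in both libraries, and 1 of them (Nanog) was more than 2-fold lower in G34R cells, at 52.24 against 127.07 RPKM. Of 6 fibroblast or feeder markers, Postn and Lum were listed at 0 in both libraries and the summed RPKM was 1.48 in WT and 0.94 in G34R cells. All 5 primitive endoderm markers were higher in G34R cells, with sums of 1.56 and 3.82 RPKM, and those of 3 mesoderm markers were 0.52 and 2.09. The neuroectoderm list summed to 37.1 in WT and 9.95 in G34R cells over the 3 of 4 genes found, most of it from Tubb3. The part of these shifts in the results below was not tested. H3f3a itself was at 8.17 RPKM in WT and 4.89 in G34R cells, a value that does not read the mutated codon.

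Nearly every zinc finger row was lower in G34R cells. Their summed RPKM was 524 in WT cells and 145 in G34R cells, a log2 (G34R/WT) of -1.86 or 3.62-fold lower, and their share of all RPKM went from 0.335% to 0.0954%. All 20 rows had at least 0.25 RPKM in 1 sample, 19 were lower in G34R cells and 15 were more than 2-fold lower. Over all 13366 genes at that level, 9.64% were more than 2-fold lower and 5.79% more than 2-fold higher. Because the interval was chosen on this contrast, nothing is read from the excess over that background. The median log2 ratio of the 20 rows was -1.66, against -0.07 for all genes at that level. No zinc finger row was more than 2-fold higher.

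**Figure D1:**
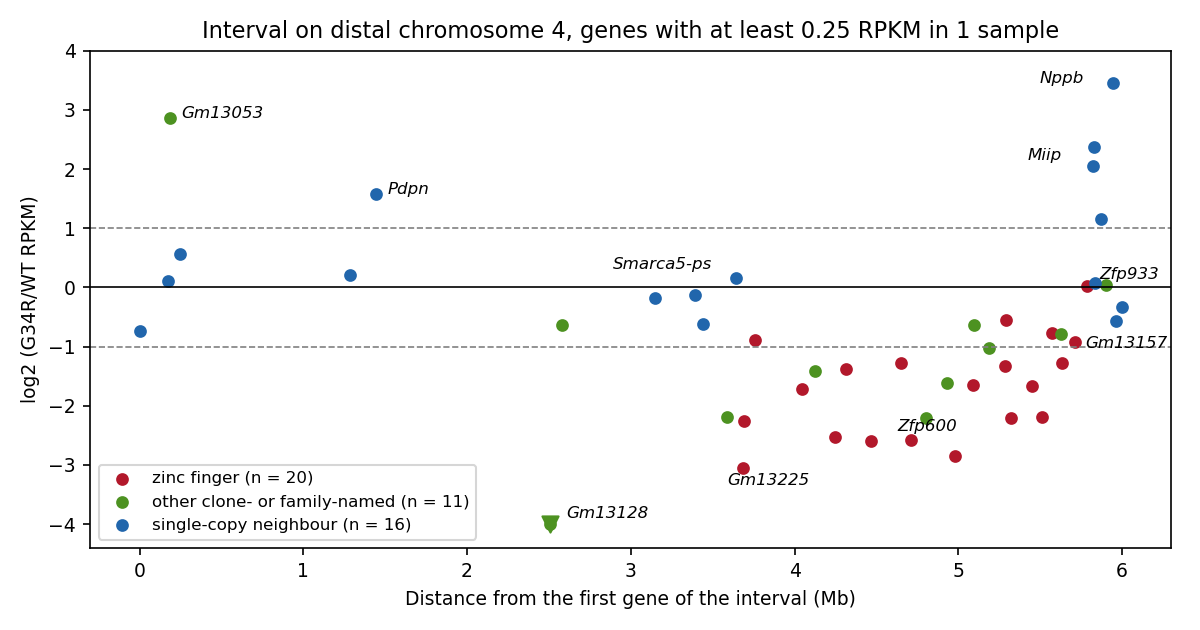
Each point is a gene with at least 0.25 RPKM in 1 sample, by distance from the first gene of the interval (Mb) and log2 (G34R/WT RPKM), with dashed lines at 2-fold; the triangle is Gm13128, listed at 0 in G34R cells and drawn at -4. Zinc finger rows lie from -3.05 to 0.03 and single-copy neighbours from -0.73 to 3.45.

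Of the 20 rows, 8 were more than 4-fold lower. Gm13225, named Zfp990 in RefSeq and with 13 fingers, had 52.39 RPKM in WT cells, the highest of the class, and 6.34 in G34R cells. Its log2 ratio was -3.05, the lowest of the class, with a 95% interval of -3.12 to -2.97 from the estimated 16200 and 1617 reads. This interval, like the others, is an exact binomial one and covers counting error only. Gm13145 (Zfp978) had 48.64 and 10.56 RPKM, a log2 ratio of -2.20. Gm13247 (Zfp981) had 47.86 and 8.31 RPKM, a ratio of -2.53. These were the 3 highest members in WT cells, and in G34R cells each was at or under the level of members that had been far below them in WT cells.

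Gm13242 (Zfp980), which overlaps Gm13225 on the same strand by 3.26% of its exon bases, had 44.06 RPKM in WT cells and 9.25 in G34R cells (log2 -2.25). Zfp600, which gives the window printed first above and has 17 fingers, had 39.72 and 6.68 RPKM (log2 -2.57, interval -2.63 to -2.51). Gm13154 (Zfp985) had 32.79 and 7.20 RPKM (log2 -2.19). Gm13154 and Gm13225 were the most unique of these 8 rows, with 74.9% and 64.4% of their stretches found once, so their values rest least on shared reads.

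Rex2 had 30.46 RPKM in WT cells and 5.05 in G34R cells (log2 -2.59). Gm13138, whose upstream window is that of Zfp600 base for base, had 24.52 and 3.41 RPKM (log2 -2.85). Since neither row held a stretch of its own, the value of each depends on how reads were placed. Zfp600 shared 74.2% of its stretches with Gm13138 as well.

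A further 7 rows were between 2-fold and 4-fold lower. Zfp534 had 25.91 RPKM in WT cells and 10.71 in G34R cells (log2 -1.27). Gm13235, without a RefSeq name here, had 23.36 and 7.14 RPKM (log2 -1.71). Gm13051 (Zfp987) had 21.89 and 9.10 RPKM (log2 -1.27). These 3 shared much of their exon sequence: 62.5% of the stretches of Gm13235 were found in Gm13051, and 51.0% of those of Zfp534. Gm13152 (Zfp982) had 19.14 and 6.0 RPKM (log2 -1.67). It shared no more than 3.0% of its stretches with any single row among those compared, the zinc finger class, 2610036A22Rik and Gm13150. Even so, only 31.0% of its stretches were found once, and 88.9% of the repeated ones were found in the interval only. Gm13251 (Zfp992) had 19.04 and 7.31 RPKM (log2 -1.38). Gm13139 (Zfp991), which held 65.8% of its stretches in common with Gm13251, had 13.80 and 4.39 RPKM (log2 -1.65). The longer of the 2 rows of Gm13151 (Zfp988) had 14.44 and 5.77 RPKM (log2 -1.32).

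The other 5 rows were within 2-fold. 2610305D13Rik (Zfp979) had 25.48 RPKM in WT cells and 14.94 in G34R cells, the highest G34R value of the class (log2 -0.77). Gm13157 (Zfp984) had 21.66 and 11.44 RPKM (log2 -0.92, interval -0.99 to -0.85). Gm13212, which shared 47.2% of its stretches with Gm13157 and has the most fingers of the class (20), had 14.90 and 8.09 RPKM (log2 -0.88). These 3 were lower by more than counting error, which does not include the spread between cultures. The short row of Gm13151, 63 bases long, rested on about 16 and 9 reads (log2 -0.55, interval -1.91 to 0.71), so no difference was detectable at this depth. Zfp933 was at 0.94 RPKM in WT cells and 0.96 in G34R cells (log2 0.03, interval -0.20 to 0.26).

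**Figure D2:**
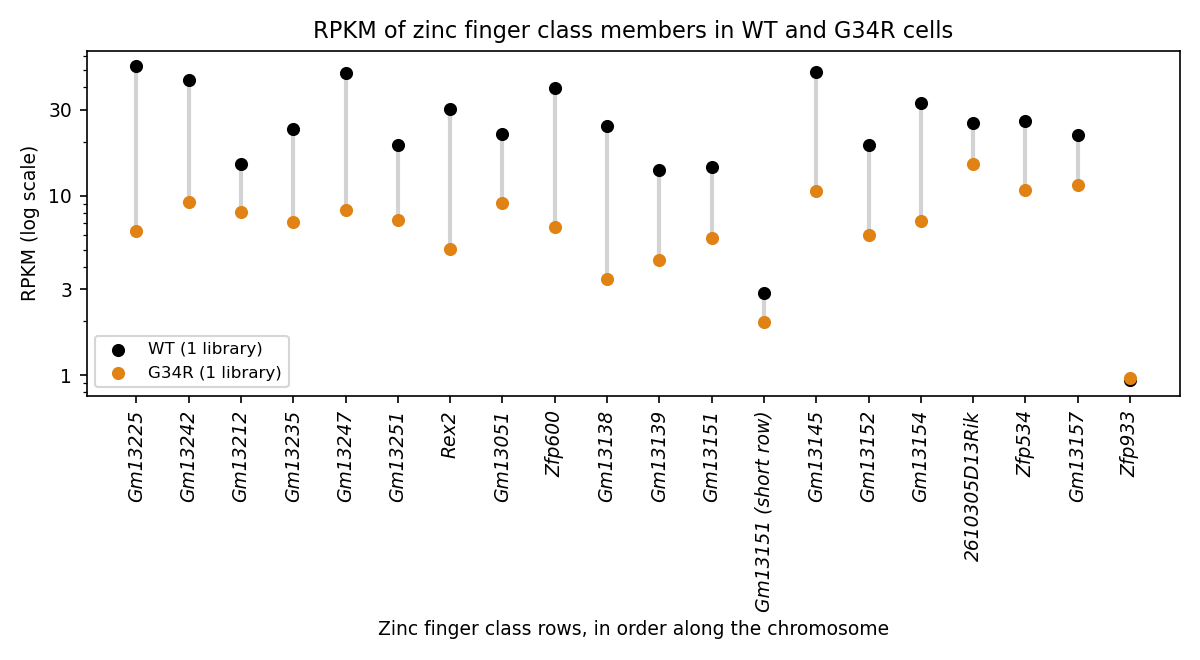
RPKM (log scale) of the 20 zinc finger rows in order along the chromosome, with WT in black and G34R in orange, 1 library each; grey bars join the values of a row. WT values run from 0.94 to 52.39 and G34R values from 0.96 to 14.94, and only Zfp933 has the higher value in G34R cells.

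In WT cells 18 of the 20 rows were at 10 RPKM or more, from 13.80 upwards, and in G34R cells 4 were. In G34R cells 17 of those 18 had a value under the lowest WT value among them. Leaving out Zfp933, the median WT level of the class was higher than 93.3% of the genes detected in WT cells, and its median G34R level was higher than 76.2% of those detected in G34R cells. No zinc finger row was at 0 in G34R cells.

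The rows that were more than 2-fold lower, Gm13128 apart, lay in 1 stretch of the chromosome. On the distal side the lower values ended between Gm13157 and Zfp933, which start on the same strand with 13.2 kb between the genes. Zfp933 was also the only zinc finger row with over 90% of its stretches found once. Miip began 12.4 kb beyond it and was higher in G34R cells. On the proximal side Tnfrsf8, 95.1 kb before Gm13227, had 0.84 RPKM in WT and 0.55 in G34R cells (log2 -0.61). Gm13227 and Gm13157 bound a stretch of 2.18 Mb. Within it, 1 gene that is no zinc finger gene was at a similar level in both libraries: Smarca5-ps, a processed copy of the chromatin remodeller gene Smarca5, had 7.99 RPKM in WT and 8.95 in G34R cells (log2 0.16). Only 38.3% of its stretches were found once, and 59.3% of the repeated ones were found in the interval only, so it is not single-copy by sequence. Smarca5 itself, on chromosome 8, had 18.59 and 24.54 RPKM (log2 0.40). The division of reads among these copies was not tested. The clone-named rows Gm17317 and Gm16211 also lie within the 2.18 Mb and were lower by less than 2-fold. Gm17317 had 0.92 RPKM in WT and 0.59 in G34R cells (log2 -0.64), and Gm16211 had 1.96 and 1.13 (log2 -0.79).

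Rows with many and with few unique stretches both held large differences. The 5 rows with at least 40% of their stretches found once had a median log2 ratio of -2.19, summed to 159 RPKM in WT and 37.8 in G34R cells, and 3 of them were more than 2-fold lower. The 15 rows under 40% had a median of -1.65, with 364 and 107 RPKM, and 12 were more than 2-fold lower. Across the 19 rows other than Zfp933, which share libraries and sequence, the correlation of the unique share with the log2 ratio was -0.12 (Pearson) and 0.00 (Spearman). With Zfp933 included (20 rows) it was 0.20 (Pearson) and 0.15 (Spearman).

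**Figure D3:**
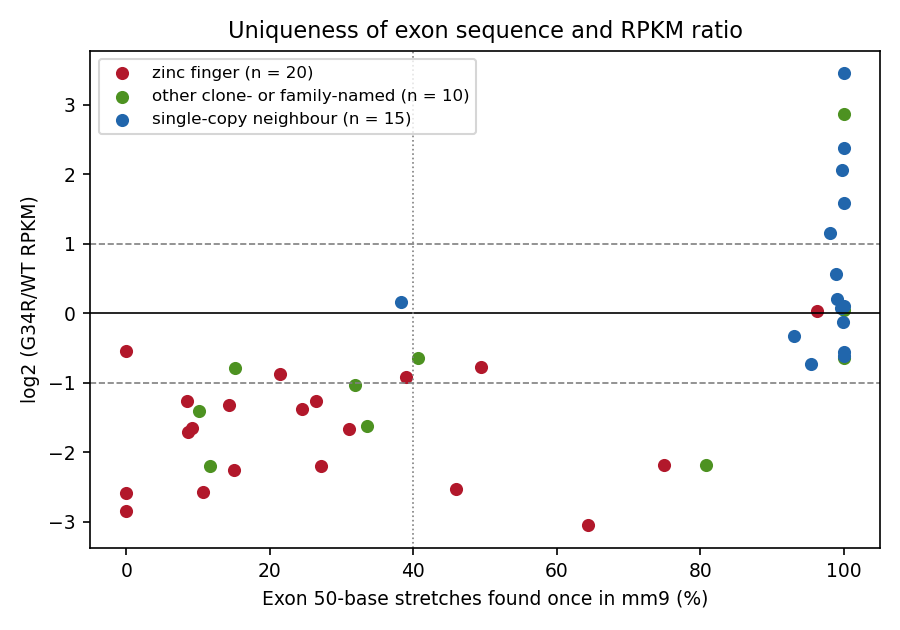
Share of 50-base exon stretches found once in mm9 (%) against log2 (G34R/WT RPKM) for genes with at least 0.25 RPKM in 1 sample (Gm13128, listed at 0 in G34R cells, and Vps13d, with no exon model matched, are not drawn); the dotted line marks 40%. Zinc finger rows below -2 occur from 0.0% to 74.9%, and the neighbours, nearly all over 90%, lie on both sides of 0.

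Rows nearest to Zfp600 in their upstream window had log2 ratios from -3.05 to -1.03 with a median of -2.19 (n = 12). Rows nearest to Gm13157 had ratios from -2.25 to -0.88 with a median of -1.53 (n = 6), and the 9 rows near neither ranged from -2.59 (Rex2) to 0.03 (Zfp933) with a median of -0.79. The ranges overlap, and all are values of the same pair of libraries. Rex2 had a large difference and an unlike window, but all its stretches were also found in Gm13138, which has the window of Zfp600. Its value thus depends on read placement. Gm13166 (log2 -2.20, window 51.3% identical to that of Zfp600), Gm13251 (-1.38, 51.9%) and the longer row of Gm13151 (-1.32, 44.2%) also had unlike windows and were more than 2-fold lower. The short row of Gm13151, Gm17317, 2610305D13Rik, Gm16211 and Zfp933 were within 2-fold. Whether the annotated 5′ ends of these rows are the true starts was not tested.

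Among the 53 other clone- or family-named rows, 42 were under 0.25 RPKM in both libraries. Of the 11 at that level, 6 were more than 2-fold lower and 1 more than 2-fold higher, beside 9.64% and 5.79% of all genes, from which nothing is read since the interval was chosen on this contrast. Of the 6 lower ones, 5 lie beside or between the zinc finger genes. Gm13227, a processed transcript at the proximal end with a window 80.9% identical to that of Zfp600, had 24.72 RPKM in WT cells and 5.42 in G34R cells (log2 -2.19). 2610036A22Rik, which encodes a KRAB-like pattern and 2 fingers, had 19.06 and 7.15 RPKM (log2 -1.41), and 84.1% of its stretches were found in Gm13139. Gm13150, a processed transcript with a window 90.7% identical to that of Zfp600, had 18.60 and 6.05 RPKM (log2 -1.62). Gm13147, with a window 92.0% identical, had 28.51 and 13.94 RPKM (log2 -1.03, within 2-fold once the libraries were rescaled to equal RPKM sums). Gm13166, with a window only 51.3% identical, had 3.77 and 0.82 RPKM (log2 -2.20). These 5 had lower values in G34R cells, as had the zinc finger rows next to them. The share of stretches found once was 80.8% in Gm13227, 33.5% in Gm13150 and 31.9% in Gm13147. It was 11.7% in Gm13166 and 10.2% in 2610036A22Rik. How shared reads were divided was not tested, so the rows are not independent of each other or of the zinc finger rows.

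Gm13128, a member of the PRAME family named Pramel30 in RefSeq and proximal to the cluster, had 1.76 RPKM in WT cells and was listed at 0 in G34R cells. Against the 3 reads that a count of 0 allows, 0.0236 RPKM, Gm13128 was at least 74.6-fold lower, a bound that covers counting only. Of its stretches 24.8% were found once and the others were repeated within the interval only, and how such reads were placed was not tested. Gm13128 was the only 1 of 16 rows with a Pramel or Oog name in RefSeq that reached 0.25 RPKM. The Prame-named rows of the interval and members of these families elsewhere were not looked at. Gm13053 was the row that was higher, at 0.07 and 0.51 RPKM (log2 2.87), but about 3 reads stood behind its WT value. The 7 rows with an Aadacl name, Aadacl3 of the neighbours included, were under 0.25 RPKM in both libraries. 2510039O18Rik, a single-copy gene by sequence that lies beyond the cluster, had 12.78 and 13.10 RPKM (log2 0.04).

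The single-copy neighbours lay on both sides of 0. Of 22, 16 had at least 0.25 RPKM in 1 sample, of which 6 were lower and 10 higher in G34R cells. None of the 16 was more than 2-fold lower, near the 9.64% of all genes for so few rows, and 5 were more than 2-fold higher, beside 5.79% of all genes. Their summed RPKM was 47.4 in WT and 67.5 in G34R cells, and their median log2 ratio over all 22 was 0.04. These are the values of genes that lie on both sides of the cluster and of Smarca5-ps, which lies within it. Smarca5-ps had the highest WT value of the class, 7.99 RPKM. Of the 5 higher ones, 4 lie on the distal side.

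Miip, an inhibitor of cell migration, had 2.19 RPKM in WT cells and 9.13 in G34R cells (log2 2.06, interval 1.93 to 2.19). Fv1, a restriction gene against murine leukaemia virus that derives from an endogenous retrovirus, had 0.48 and 2.48 RPKM (log2 2.37, interval 1.94 to 2.79). Plod1, a collagen lysyl hydroxylase, had 2.57 and 5.70 RPKM (log2 1.15). These genes are adjacent to or near the distal end of the cluster, but Mfn2, a mitochondrial fusion gene that lies between Fv1 and Plod1, had 2.93 and 3.08 RPKM (log2 0.07). Nppb, the gene of a natriuretic peptide, had 0.25 and 2.74 RPKM (log2 3.45, interval 2.75 to 4.29 from about 17 and 156 reads). Nppa, the related peptide gene beside it, was listed at 0 in both libraries.

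On the proximal side Pdpn, which encodes the membrane glycoprotein podoplanin, had 3.18 and 9.53 RPKM (log2 1.58). Prdm2, a PR domain zinc finger gene that is not of the KRAB family, had 5.17 and 5.96 RPKM (log2 0.21). Tmem51, a membrane protein gene, had 4.11 and 4.44 RPKM (log2 0.11). The rule that chose the interval is a limit of position, and values at its ends were as follows. Efhd2, the first gene inside, had 4.46 and 2.68 RPKM (log2 -0.73), and the nearest gene before it with at least 0.25 RPKM, Cela2a, had 0.61 and 0.01. At the distal end Clcn6, inside the interval, had 3.16 and 2.15 RPKM (log2 -0.56), and Agtrap, outside it, had 13.58 and 12.64. Further out, Dnajc16 had a log2 ratio of -0.17, Casp9 of 0.47, 2610109H07Rik of -2.81 and Mad2l2 of 0.13.

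**Figure D4:**
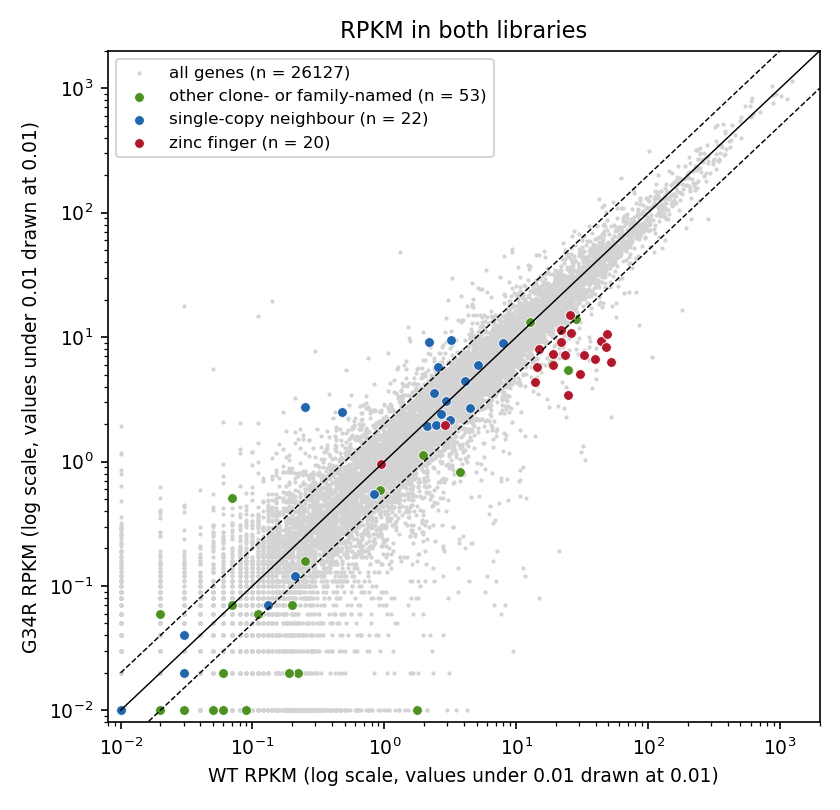
WT against G34R RPKM (log scales) for all 26127 rows in grey and the 95 rows of the interval in colour by class; the solid line marks equal values and the dashed lines 2-fold. The zinc finger rows form a group at 13.80 to 52.39 RPKM in WT cells and 3.41 to 14.94 in G34R cells, apart from Zfp933 and the short row of Gm13151.

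Genes of the same kind elsewhere in the genome were lower to a smaller extent by their median, though the ranges overlap. Outside the interval 252 rows had at least 3 C2H2 fingers and a KRAB-like pattern, of which 228 had at least 0.25 RPKM in 1 sample. Of these 37 were more than 2-fold lower (16.2%, against 9.64% of all genes) and 3 more than 2-fold higher (1.32%, against 5.79%). Their log2 ratios ran from -2.91 to 2.57 with a median of -0.49. Only 11 of them had at least 10 RPKM in WT cells, against 18 rows of the cluster. Of the 11, 6 were more than 2-fold lower and the median log2 ratio was -1.01, in a range from -1.76 (Zfp229) to 0.36 (Zfp57). Of the 18, 15 were more than 2-fold lower and the median was -1.69. A limit on the WT value alone favours lower ratios in both groups. The share of all genes at that limit is not given, so nothing is read from these counts. The 331 genes with a Zfp name elsewhere and at least 0.25 RPKM had a median of -0.14, and 28 (8.46%) were more than 2-fold lower. Since the interval was chosen on these ratios, the difference between the groups is given as a description and was not tested.

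**Figure D5:**
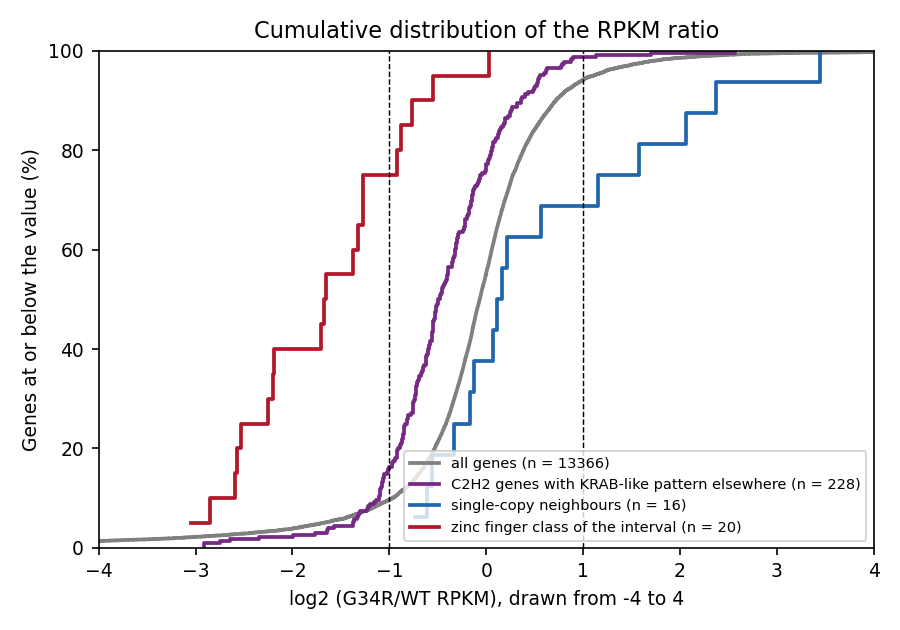
Share of genes (%) at or below each log2 (G34R/WT RPKM) for genes with at least 0.25 RPKM in 1 sample; the dashed lines mark 2-fold. The median is -1.66 for the zinc finger class of the interval, -0.49 for C2H2 genes with a KRAB-like pattern elsewhere, -0.07 for all genes and 0.14 for the single-copy neighbours.

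The values of a mixed list of genes linked to silencing by KRAB zinc finger proteins are given as background to the cluster. It holds co-repressors and other chromatin factors, the demethylases Kdm4a, Kdm4b and Kdm4c, and the KRAB zinc finger genes Zfp57 and Zfp809. Zfp57 and Zfp809 are also among the KRAB zinc finger genes elsewhere described above. Of 30 genes listed for this pathway, in 31 rows, all had at least 0.25 RPKM, 1 row was more than 2-fold lower (3.23%, against 9.64% of all genes) and 2 were more than 2-fold higher (6.45%, against 5.79%), and the median log2 ratio was -0.05. Shares this near to those of all genes are no result about the pathway. Trim28, the co-repressor that binds the KRAB domain, had 326.77 RPKM in WT and 222.49 in G34R cells (log2 -0.55). Setdb1 had 15.06 and 15.25 RPKM (log2 0.02). Chd4, a remodeller of the NuRD complex, had 49.43 and 58.17 (log2 0.23), and Uhrf1, which helps to maintain DNA methylation, had 53.22 and 51.10 (log2 -0.06). The 3 rows past 2-fold were the maintenance DNA methyltransferase Dnmt1, at 8.14 and 44.43 RPKM (log2 2.45), the H3K9 methyltransferase Suv39h1, at 1.57 and 3.36 (log2 1.10), and Zfp809, a KRAB zinc finger protein that silences murine leukaemia virus, at 10.51 and 4.49 (log2 -1.23). Kdm4a, Kdm4b and Kdm4c, demethylases of H3K9 and H3K36, had log2 ratios of 0.10, -0.52 and -0.22.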

How the data were processed

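The WT and G34R ES cells had 1 RNA-seq library each. Stranded single reads of 50 bases had been aligned by the authors to mm9 (STAR 2.4.2a, per the submitters' processing notes) and primary alignments counted per gene in Seqmonk, with isoforms merged. The deposited unit is RPKM, corrected for transcript length, and counts were not analysed here. Reads of a 129S1/SvImJ line were thus placed on the reference genome, and copies that differ between strains or that the reference lacks were not examined here.

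Ratios are log2 of G34R over WT RPKM after raising values under 0.01 to 0.01, and counts of genes needed 0.25 RPKM in 1 sample. No test was made. Rows were matched to GENCODE M1 genes by position (94 of 95 members), and names to RefSeq of GRCm38.p6 (73 members). RefSeq proteins were not used here, so fingers and KRAB-like patterns were sought in translated M1 coding sequences. All 50-base exon stretches were counted on both strands of mm9. Upstream windows were aligned with edlib 1.3.9. Reads per gene were estimated from RPKM, exon length and depth, and 95% intervals are exact binomial (Clopper-Pearson). The calculations were tested on simulated data. Members and gene lists were chosen with earlier results of these data known. Named genes were all zinc finger rows, other rows past 2-fold, the 5 highest neighbours, 3 genes beyond each end, and pathway genes that were past 2-fold or among the 3 highest. Setdb1, the Kdm4 genes and the genes that fix positions or read sharing were added after their values were seen. The values of 1 member are not reported here. Alternatives were other pseudocounts, scalings, filters, folds and class definitions. Scripts used SciPy 1.17.1 and NumPy 2.4.6 under Python 3.11.15, with matplotlib 3.10.9 for figures.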

Additional observations from a re-analysis of the deposited data

How the results depend on the processing

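The zinc finger rows stayed lower as a class under every alternative that was run. The count of rows more than 2-fold lower, 15, became 8 at a 4-fold limit, 9 of 11 without rows that overlap another gene on the same strand, and 3 of 5 among rows with at least 40% of stretches found once, a setting chosen after seeing the data. A class set by name alone held 1 row more than 2-fold higher (Gm13053), against 0. The median log2 ratio, -1.66, became -1.49 with a pseudocount of 1 RPKM, -0.88 with the class set by name alone, which adds rows at or near 0, and -2.19 among the rows at least 40% unique. The log2 ratio of summed RPKM, -1.86, became -1.81 after rescaling to equal RPKM sums, -1.80 after centring, -1.95 without overlapping rows, -1.92 in the central part of the interval and -2.08 among the rows at least 40% unique. The median of the neighbours lay between 0.00 and 0.14. Of 160 alternatives for 32 named rows, 0 changed the sign of a ratio past 2-fold, but Gm13147 came within 2-fold (-0.98 or -0.99) with a pseudocount of 1 RPKM, rescaling or centring, and Plod1 (0.91) and Gm13053 (0.50) did with that pseudocount. No paired analysis was possible because each group has 1 sample. With 1 library per line, a difference between cultures or clones cannot be told apart from one of genotype, and values of single members with few unique stretches depend on read placement.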
